A study of Mus musculus with 11 samples.

Results

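The genes described here are 8 SOX transcription factor genes, Sox4, Sox5, Sox6, Sox8, Sox9, Sox11, Sox12 and Sox13. They were chosen by their symbols from the 21684 genes of the deposited table, and all 8 had a row. RNA came from NIH/3T3, an immortal mouse fibroblast line of embryonic origin, kept without serum for 24 h, a treatment under which such cells leave the cell cycle and grow a primary cilium. The 11 libraries were 2 of unmodified cells (WT), 3 of Xap5 KO, 3 of Nono KO and 3 of Sox5 KO cells, and all of them, WT included, had the serum-free treatment. In mouse nomenclature Xap5 is Fam50a, a match that rests on background knowledge. Xap5 codes for a nuclear protein and Nono for an RNA- and DNA-binding protein of paraspeckles, and the study asked which genes depend on them and on Sox5 while cilia form. The labels name no separate clones, do not say how the knockouts were made, and do not say that the replicates were separate cultures. P-values therefore measure only the spread between these libraries, which may be technical, and the effect of a genotype and the history of the line that carries it cannot be told apart.

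SOX proteins bind DNA through an HMG box, a domain that holds the minor groove and bends the helix, and they are grouped by the likeness of that box. Sox5, Sox6 and Sox13 form the SoxD group, which lack a transactivation domain of their own, pair through a coiled coil and act as cofactors or repressors at sites shared with other SOX proteins. Sox4, Sox11 and Sox12 form the SoxC group, activators coded by genes with a single exon and known from progenitor cells of the nervous system and mesenchyme. Sox8 and Sox9 belong to the SoxE group, with Sox10, and Sox9 with Sox5 and Sox6 makes the trio that drives cartilage genes in chondrocytes.

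Sequences just before the transcription starts are shown because Sox4 and Sox5 were lower in all 3 knockouts while Sox12 was not, and because Sox6, alone among the members with an entry, had SOX motifs in its windows. RefSeq entries on GRCm38.p6 were found for 7 of the 8 members, Sox9 having none, and each window is the 250 bases before a start. All 4 windows lie on the minus strand and are written 5′ to 3′ along the gene. The first 3, at chr13:28953700-28953949 for Sox4, chr6:143947107-143947356 for Sox5 and chr2:152398047-152398296 for Sox12, have each CG dinucleotide in capitals. The fourth, at chr7:115824711-115824960, is the window before the fifth of 6 starts listed for Sox6 and has the SOX motifs AACAAT and ACAAAG, or their reverse complements ATTGTT and CTTTGT, in capitals.
Sox4: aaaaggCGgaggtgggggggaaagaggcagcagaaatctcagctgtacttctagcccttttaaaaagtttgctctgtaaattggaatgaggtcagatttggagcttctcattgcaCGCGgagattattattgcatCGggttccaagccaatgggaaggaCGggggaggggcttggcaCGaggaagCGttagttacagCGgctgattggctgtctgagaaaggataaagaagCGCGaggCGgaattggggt
Sox5: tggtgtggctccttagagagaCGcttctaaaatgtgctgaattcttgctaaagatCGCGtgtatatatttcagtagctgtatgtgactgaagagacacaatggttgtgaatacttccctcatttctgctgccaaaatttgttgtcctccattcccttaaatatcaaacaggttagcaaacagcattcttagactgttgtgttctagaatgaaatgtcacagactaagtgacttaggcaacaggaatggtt
Sox12: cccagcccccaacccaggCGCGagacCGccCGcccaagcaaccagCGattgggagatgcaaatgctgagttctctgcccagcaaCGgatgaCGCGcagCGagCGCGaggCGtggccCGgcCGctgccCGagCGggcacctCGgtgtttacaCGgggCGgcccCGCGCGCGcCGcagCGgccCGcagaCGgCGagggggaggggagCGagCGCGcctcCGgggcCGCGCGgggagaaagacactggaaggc
Sox6: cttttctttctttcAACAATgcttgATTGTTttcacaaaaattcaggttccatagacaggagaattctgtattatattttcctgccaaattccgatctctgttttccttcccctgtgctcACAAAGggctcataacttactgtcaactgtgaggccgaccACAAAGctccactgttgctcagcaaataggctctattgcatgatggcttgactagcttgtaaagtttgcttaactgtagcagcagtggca

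The Sox12 window held 35 CG dinucleotides at a GC content of 74.4%, the Sox4 window 11 at 50.8%, and the Sox5 window 3 at 39.6%. Over the 32851 RefSeq windows of the same length the median was 6 CG dinucleotides and 52.4% GC. Sox4 thus lay above the median in CG dinucleotides and Sox5 below it. Any part of the CG or GC content in the changes was not tested. Both motifs were searched on both strands. They share the letters ACAA and differ after them, so no site counts as both. AACAAT was present in 9.42% of all windows, ACAAAG in 16.5%, and at least 1 of them in 24%. No window of Sox4, Sox5, Sox8, Sox11, Sox12 or Sox13 held either, which says only that these letters are not in these 250 bases. Sox6 had 6 windows and each of these genes 1, so Sox6 had more chances of a match. The printed Sox6 window is the one with the most matches, 4, where the others held 1, 1, 2, 1 and 0. The printed Sox6 window held AACAAT 236 bases and its reverse complement 225 bases before the start, facing each other across 5 bases, and ACAAAG at 130 and 90 bases before it. These matches are a description of the letters and not of binding.

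Values are estimated read counts, given as depth-scaled counts (CPM) on library sizes scaled with TMM factors, which align the bulk of genes between libraries. Library totals ran from 30205878 to 43498383 counts. Of the 21684 genes, 13332 passed the filter on low counts and were tested with edgeR's quasi-likelihood test, and a gene was called at a Benjamini-Hochberg adjusted p under 0.05 over all tested genes. Sox4, Sox5, Sox6, Sox9 and Sox12 passed the filter, while Sox8, Sox11 and Sox13 did not. A change is a log2 fold change with its standard error (SE), and a group with at most 3 counts in every library, 0.0681 to 0.102 CPM, was treated as at the floor. Fam50a and Nono followed their labels: Fam50a stood at 7.489, 7.911 and 7.857 CPM in Xap5 KO against 64.78 and 62.89 in WT, and Nono at 33.95, 34 and 27.56 CPM in Nono KO against 357.4 and 350.8. All 9 fibroblast markers exceeded 1 CPM in every group. They summed to 23900 CPM in WT and to 47600 to 52300 in Nono KO. The sums were 18300 to 19600 in Xap5 KO and 19600 to 20100 in Sox5 KO. The 5 epithelial markers summed to at most 0.497 CPM in a library. Krt8 and Krt18 were at 0 in every library, and Epcam in those of WT, Xap5 KO and Nono KO. The knockouts differed from WT along whole chromosomes as well: the medians of the autosomes ran from -0.46 to 0.29 on the log2 scale in Xap5 KO, from -0.2 to 0.35 in Nono KO and from -0.75 to 0.39 in Sox5 KO. Chromosome X had medians of 0.36, -0.33 and 0.14 in the same order. The 9 tested genes of chromosome Y had a median of -8.22 in every knockout against WT and of 0 between knockouts. All knockouts thus share a difference from WT beyond the targeted genes, and its part in the SOX values was not tested.

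Against WT, 3 of the 5 tested SOX genes fell in each knockout, and they were Sox4, Sox5 and Sox9 each time. In Xap5 KO 2 rose, Sox6 and Sox12, and 3 fell (Sox6 passed the filter only through the Xap5 KO libraries and was not called without a filter, with an edgeR adjusted p of 0.104), where 23.2% of all tested genes were called higher, 22.3% lower and 45.5% in either direction. In Nono KO 3 fell, while Sox12 was not called and Sox6 was at the floor there and in WT, where 23.5% were called higher, 25.1% lower and 48.6% in either direction. In Sox5 KO 1 rose, Sox12, and 3 fell, where 30.6% were called higher, 30.3% lower and 60.9% in either direction. The median change of the 5 tested members was -0.52, -0.81 and -1.22 in the Xap5, Nono and Sox5 knockouts, beside medians over all tested genes of 0.003, -0.02 and -0.006. Each of these member medians includes Sox6, which was at the floor in WT, Nono KO and Sox5 KO (SE 1.92 and 1.98 in the last 2 against WT). They depend on that gene and are given as a description. The 3 comparisons share the WT libraries, so their directions are not independent of each other. In bulk RNA, fewer cells that express a gene and less of its RNA per cell cannot be told apart.

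Sox5, the SoxD gene of this cell line, was lower in all 3 knockouts and lowest in Nono KO. It was counted 2004 and 2024 times in the WT libraries, 553, 617 and 462 times in Xap5 KO, 284, 311 and 317 times in Nono KO, and 407, 410 and 436 times in Sox5 KO. On the CPM scale these were 49.72 and 45.93 in WT, 14.23, 15.02 and 11.9 in Xap5 KO, 7.008, 7.574 and 8.755 in Nono KO, and 12.59, 13.89 and 13.91 in Sox5 KO. Every WT library lay far above every knockout library, and the 3 Nono KO libraries lay below all others, including those of the cells in which Sox5 itself was targeted. Mean levels were 28.7% ± 3.39 (SD, n = 3) of WT in Xap5 KO, 16.3% ± 1.86 (n = 3) in Nono KO and 28.1% ± 1.59 (n = 3) in Sox5 KO. The level of Sox5 therefore does not single out the libraries labelled Sox5 KO, and as the labels do not say where the gene was edited, its remaining counts there cannot be placed relative to the edit.

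The change of Sox5 was -1.80 (SE 0.122) in Xap5 KO, -2.62 (SE 0.126) in Nono KO and -1.83 (SE 0.123) in Sox5 KO, with adjusted p of 1.29e-10, 3.24e-13 and 4.65e-11 by edgeR's quasi-likelihood test. Of all tested genes, 3.73%, 2.37% and 4.94% had a lower log2 fold change in the same comparisons. Chromosome 6, which carries Sox5, had medians of -0.25, -0.19 and -0.35 over its tested genes, and the 20 tested genes nearest to Sox5 had medians of -0.26, -0.09 and -0.05, so Sox5 lay below both medians in each knockout. Sox5 was higher in Xap5 KO than in Nono KO by 0.82 (SE 0.117, adjusted p 5.17e-06) and lower in Nono KO than in Sox5 KO by 0.79 (SE 0.119, adjusted p 5.62e-06) in the same edgeR fit. Xap5 KO and Sox5 KO were not separated, with a difference of 0.03, a 95% interval from -0.20 to 0.25 and an edgeR adjusted p of 0.852. With an offset for length and GC content that difference became -0.38, with an edgeR adjusted p of 0.00793. An antisense transcript gene, Sox5os1, overlaps exons of Sox5 on the opposite strand and has no row of its own in the table, so its reads cannot be told from those of Sox5 if strand was not used in counting.

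**Figure D1:**
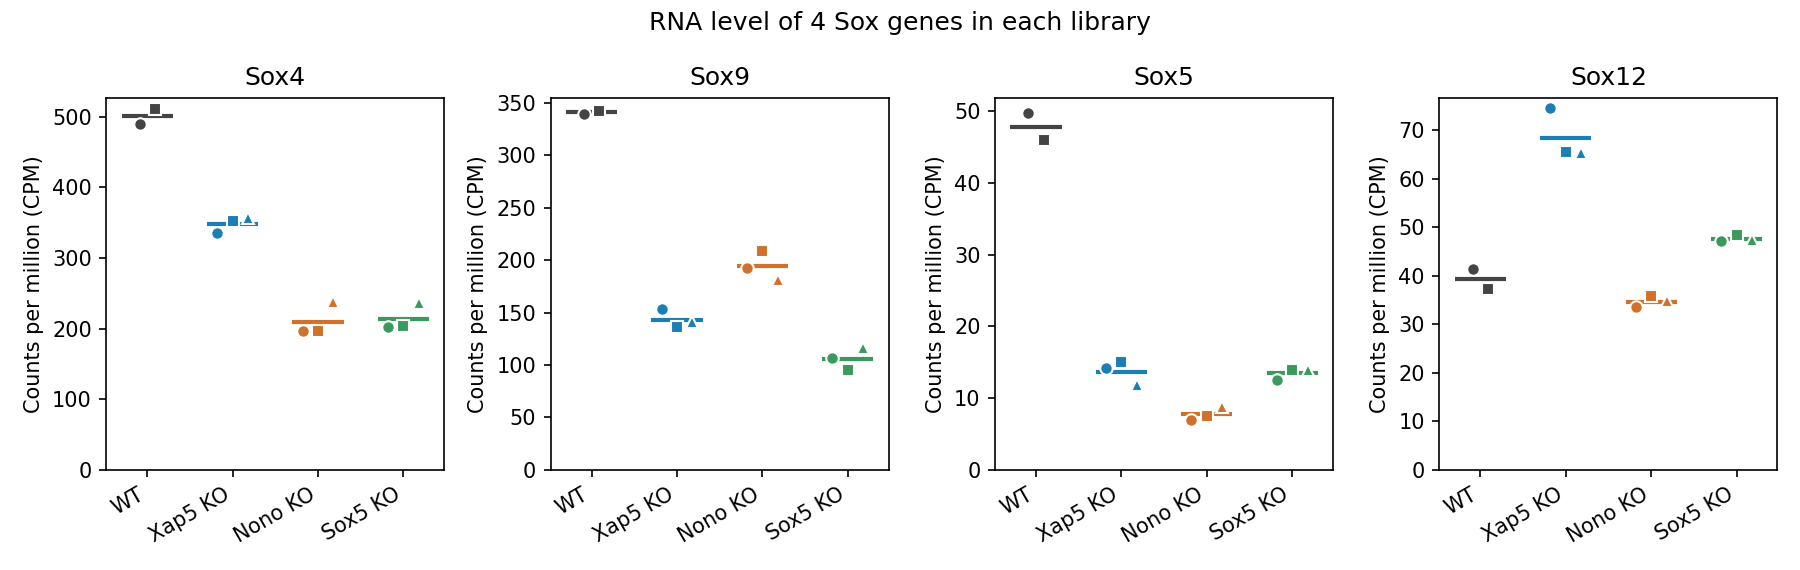
Normalised read count in CPM (vertical axis, starting at 0) of Sox4, Sox9, Sox5 and Sox12 in each library, by genotype. Each point is a library (circle, square and triangle for replicates 1, 2 and 3) and each bar is the group mean. For Sox4, Sox9 and Sox5 both WT points lie above every knockout point, while for Sox12 the Xap5 KO points, at 65.3 to 74.6 CPM, lie above all others.

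The other SoxD genes were scarce. Sox6 was counted 2 and 0 times in WT, 12, 28 and 21 times in Xap5 KO, 2, 0 and 0 times in Nono KO and 2, 0 and 0 times in Sox5 KO. It was above the floor of 3 counts in all 3 Xap5 KO libraries and in no other library. Set against that floor per library, its mean of 0.51 CPM in Xap5 KO exceeded that of WT at least 6.86-fold, that of Nono KO at least 6.16-fold and that of Sox5 KO at least 5.02-fold. The edgeR adjusted p were 0.0317, 0.0075 and 0.00996, from a fit whose filter kept Sox6 only through the Xap5 KO libraries. Against WT the call did not hold without WT replicate 1 (adjusted p 0.0687), without WT replicate 2 (0.232), without Xap5 KO replicate 2 (0.0738) or without the filter on low counts (0.104), all by edgeR's test. Even in Xap5 KO, Sox6 stood far under Sox5 on the scale of CPM per kilobase of the longest transcript, at 0.0589 ± 0.0217 against 1.894 ± 0.224 (SD, n = 3).

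Sox13 was at 0 in both WT libraries, all 3 Xap5 KO libraries and all 3 Nono KO libraries, and was counted 4, 7 and 12 times in Sox5 KO. Its mean in Sox5 KO exceeded that of WT at least 3.33-fold, that of Xap5 KO at least 3.21-fold and that of Nono KO at least 2.99-fold. It did not pass the filter; in the edgeR fit without a filter its adjusted p were 0.0938, 0.0431 and 0.043. Floors and bounds cover counting error alone, as PCR copies of a molecule are not independent.

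**Figure D2:**
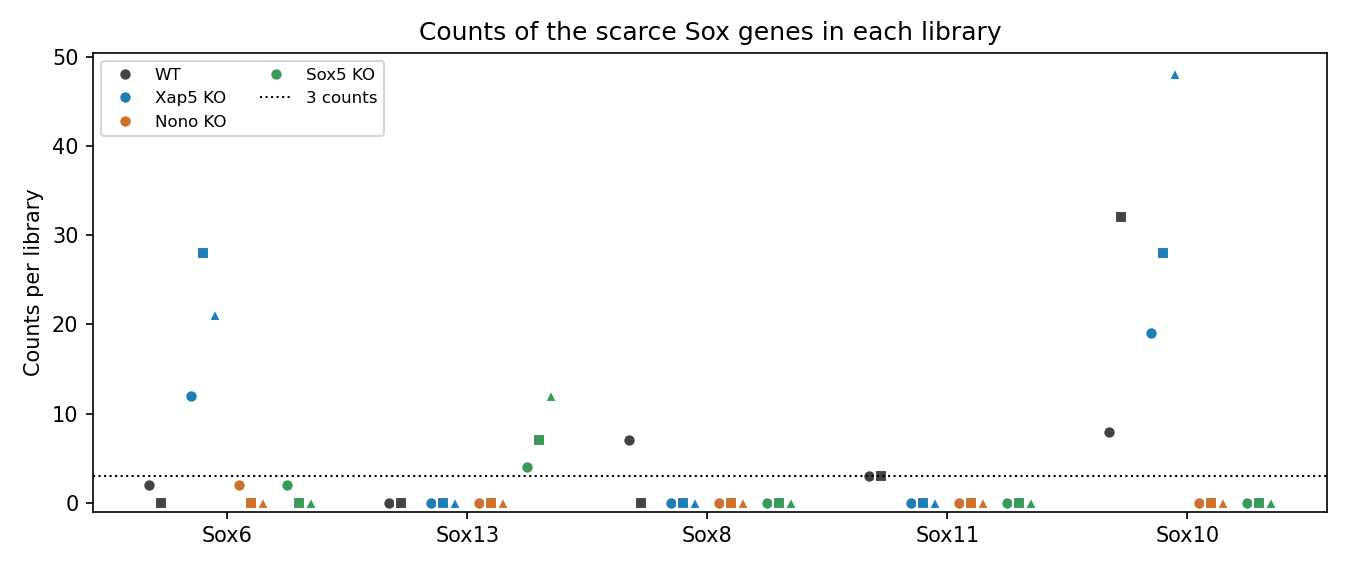
Read counts per library (vertical axis) of Sox6, Sox13, Sox8, Sox11 and Sox10, by genotype, with a dotted line at the floor of 3 counts; circle, square and triangle are replicates 1, 2 and 3. Sox6 rises above the line in Xap5 KO, Sox13 in Sox5 KO, and Sox10 in WT and Xap5 KO.

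Sox4, the most abundant SoxC gene, was lower in all 3 knockouts. It stood at 490 and 510.9 CPM in WT, 335.2, 352.7 and 356.6 CPM in Xap5 KO, 196.2, 196.2 and 237.3 CPM in Nono KO, and 202.9, 204.3 and 235.7 CPM in Sox5 KO. WT, Xap5 KO and the other two knockouts formed 3 levels with no overlap between them, while Nono KO and Sox5 KO overlapped. Mean levels were 69.6% ± 2.27 (SD, n = 3) of WT in Xap5 KO, 41.9% ± 4.74 (n = 3) in Nono KO and 42.8% ± 3.71 (n = 3) in Sox5 KO.

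By edgeR's quasi-likelihood test Sox4 changed by -0.52 (SE 0.0786, adjusted p 1.81e-05) in Xap5 KO, by -1.25 (SE 0.0785, adjusted p 7.01e-11) in Nono KO and, in Sox5 KO, by -1.22 (SE 0.0786, adjusted p 5.99e-11). Chromosome 13, which carries it, had medians of 0.29, 0.09 and 0, and its 20 nearest tested genes had medians of 0.36, 0.18 and 0.13. Among these 20 genes 12, 9 and 13 were called in either direction, and the lowest stood at -0.83, -6.77 and -2.97. Sox4 was higher in Xap5 KO than in Nono KO by 0.73 (SE 0.0717) and than in Sox5 KO by 0.70 (SE 0.0718), with edgeR adjusted p of 5.08e-08 and 5.68e-08. Nono KO and Sox5 KO differed by -0.03, with a 95% interval from -0.17 to 0.11 and an edgeR adjusted p of 0.737. Exons of the gene Gm26735 overlap Sox4 on the opposite strand and that gene has no row in the table.

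Sox12, the other SoxC gene above the filter, went its own way. It stood at 41.46 and 37.26 CPM in WT, 74.6, 65.55 and 65.3 CPM in Xap5 KO, 33.61, 35.75 and 34.71 CPM in Nono KO, and 47.22, 48.49 and 47.37 CPM in Sox5 KO. No 2 groups overlapped, with Nono KO lowest, then WT, Sox5 KO and Xap5 KO. In Xap5 KO it rose by 0.80 (SE 0.0852, edgeR adjusted p 1.3e-07), to 174% of the WT mean, where chromosome 2 had a median of 0.13 and its 20 nearest tested genes 0.16.

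In Sox5 KO Sox12 rose by 0.28 (SE 0.0846, edgeR adjusted p 0.00747), less than the median of 0.42 of its 20 nearest tested genes. That call did not hold with library totals in place of TMM factors (0.16), with an offset for the chromosome median (0.14) or without WT replicate 2 (0.20). In Nono KO Sox12 was at -0.18 (SE 0.0839, 95% interval -0.35 to -0.02) with an edgeR adjusted p of 0.0802, and with library totals it was called lower, at -0.35 with an adjusted p of 0.0012. An offset for length and GC content took the same value to 0. Between knockouts Sox12 was higher in Xap5 KO than in Nono KO by 0.98 and than in Sox5 KO by 0.52, and lower in Nono KO than in Sox5 KO by 0.46, with edgeR adjusted p of 6.16e-10, 3.42e-06 and 1.89e-05. Sox11, the remaining SoxC gene, was counted 3 times in each WT library and 0 times in all 9 knockout libraries, so both sides were at the floor and no fold is given.

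Sox9, the SoxE gene and the best known of the family in skeletal cells, was lower in all 3 knockouts and lowest in Sox5 KO. Its counts were 13686 and 15075 in WT, 5962, 5581 and 5459 in Xap5 KO, 7785, 8572 and 6561 in Nono KO, and 3455, 2818 and 3634 in Sox5 KO. On the CPM scale WT stood at 339.6 and 342.1, Xap5 KO at 153.4, 135.8 and 140.6, Nono KO at 192.1, 208.8 and 181.2, and Sox5 KO at 106.8, 95.5 and 115.9. No 2 of the 4 groups overlapped, and the order from high to low was WT, Nono KO, Xap5 KO and Sox5 KO.

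Sox9 changed by -1.25 (SE 0.0749, adjusted p 1.66e-11) in Xap5 KO, by -0.81 (SE 0.0748, adjusted p 1.08e-08) in Nono KO and, in Sox5 KO, by -1.68 (SE 0.0755, adjusted p 7.42e-14) by edgeR's quasi-likelihood test. Chromosome 11 had medians of 0.01, 0.03 and 0.15, and the 20 tested genes nearest to Sox9 medians of -0.16, 0.05 and 0.13. Among these 20 genes 8, 11 and 13 were called in either direction, and the lowest, at -2.21, -2.45 and -2.42, lay below Sox9 in each knockout. All 3 differences between knockouts passed the test: Xap5 KO was below Nono KO by 0.44 (SE 0.0683) and above Sox5 KO by 0.43 (SE 0.069), and Nono KO was above Sox5 KO by 0.87 (SE 0.0692), with edgeR adjusted p of 1.53e-05, 1.33e-05 and 5.3e-10. The order of the genotypes therefore differed between the 3 genes that fell everywhere: Nono KO had the lowest Sox5 and Sox5 KO the lowest Sox9, while Nono KO and Sox5 KO were not separated for Sox4. Sox8, the other SoxE member, was counted 7 times in WT replicate 1 and 0 times in the other 10 libraries.

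**Figure D3:**
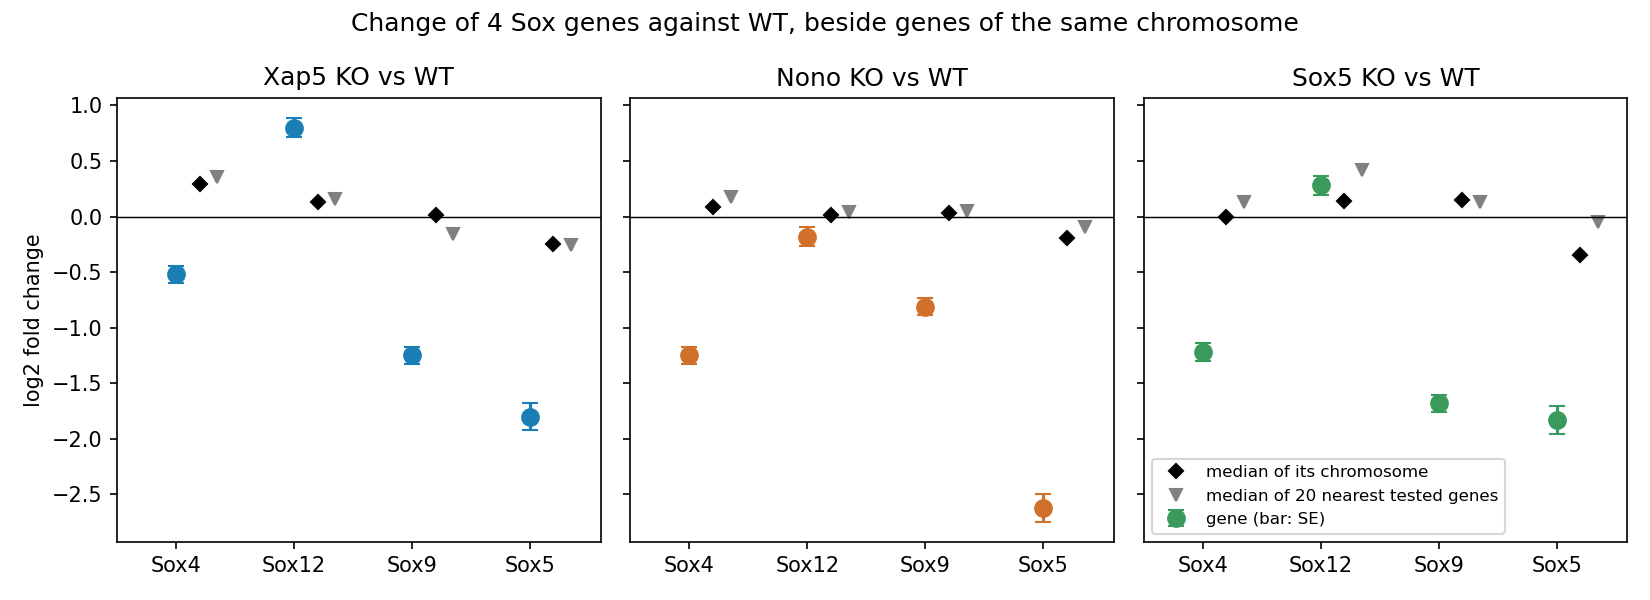
Log2 fold change against WT (vertical axis) of Sox4, Sox12, Sox9 and Sox5 in each knockout, with bars of 1 SE, beside the median of all tested genes of the same chromosome (diamonds) and of the 20 nearest tested genes (triangles). Sox4, Sox5 and Sox9 lie below both medians in each knockout, from -0.52 to -2.62, and Sox12 lies above both in Xap5 KO only, at 0.80.

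The knockouts were also compared with each other, 3 comparisons in all. Of the 5 tested members, 4 were higher and 1 lower in Xap5 KO than in Nono KO, where 27.1% of tested genes were called higher, 25.9% lower and 53% in either direction. In Xap5 KO against Sox5 KO 4 were higher, where 31.1% were called higher, 30.4% lower and 61.6% in either direction. In each of these comparisons 1 of the 4 was Sox6, which passed the filter only through the Xap5 KO libraries. In Nono KO against Sox5 KO 1 was higher and 2 were lower, where 30.9% were called higher, 32.6% lower and 63.5% in either direction. Sox5, in Xap5 KO against Sox5 KO, and Sox4 and Sox6, in Nono KO against Sox5 KO, were the members that did not pass.

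To compare the genes with each other, CPM were divided by the length of the longest transcript in kilobases. In WT the mean level per kilobase was 104.4 ± 3.09 (SD, n = 2) for Sox4, 82.43 ± 0.44 for Sox9, 8.839 ± 0.666 for Sox12 and 6.603 ± 0.37 for Sox5. Sox4 and Sox9 thus made up nearly all SOX RNA of this set. The order of Sox12 and Sox5 turned with the median transcript length of each gene, which put Sox5 in WT at 21.7 per kilobase, because the Sox5 gene has many short annotated transcripts. In Nono KO Sox9 and Sox4 stood at 46.92 ± 3.36 and 43.78 ± 4.95 (SD, n = 3), a difference within the spread of the libraries. In Xap5 KO and Sox5 KO, Sox4 was above Sox9 in every library.

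The summed level of all 8 genes per kilobase was 202.3 ± 2.4 (SD, n = 2) in WT, and 124.6 ± 1.25, 99.57 ± 3.3 and 82.98 ± 6.02 in the Xap5, Nono and Sox5 knockouts (n = 3 each), with no overlap between groups. The SoxC genes took 55.95% ± 0.495 of that sum in WT, and 70.63% ± 1.5, 51.73% ± 3.8 and 66.77% ± 1.22 in the Xap5, Nono and Sox5 knockouts. The SoxE genes, in effect Sox9, took 40.8% ± 0.283, 27.83% ± 1.47, 47.13% ± 3.86 and 30.9% ± 1.37 in the same order. The Xap5 KO and Sox5 KO libraries lay above WT in their SoxC share and below it in their SoxE share, and the Nono KO libraries, at 48.7% to 56% SoxC, overlapped WT in that share. Their SoxE share, 42.8% to 50.2%, lay above the 40.6% and 41% of WT.

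The SoxD genes took 3.27% ± 0.226 of the sum in WT, and 1.57% ± 0.191, 1.077% ± 0.0907 and 2.327% ± 0.169 in the Xap5, Nono and Sox5 knockouts. All knockout libraries had a smaller SoxD share than WT. The ratio of Sox9 to Sox5 was 12.5 ± 0.707 in WT, and 18.47 ± 2.48, 44.2 ± 6.84 and 13.83 ± 1.59 in the Xap5, Nono and Sox5 knockouts. Both genes were lower in Sox5 KO by amounts that left their ratio at 12 to 14.9, overlapping the WT values of 12 and 13, while every Nono KO library, at 36.3 or more, was above all others. The ratio of Sox12 to Sox4, the SoxC pair, was 0.0848 ± 0.00891 in WT and 0.2123 ± 0.024, 0.1793 ± 0.0194 and 0.241 ± 0.0218 in the Xap5, Nono and Sox5 knockouts, so it was higher than WT in each knockout library. These shares and ratios are descriptions with no test, and shares move together because they sum to the whole. They also depend on the length used: with median transcript lengths Sox5 in WT was at 21.7 per kilobase in place of 6.603. The SoxD share would then be larger in every group, and the ratio of Sox9 to Sox5 smaller by the same factor in each.

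**Figure D4:**
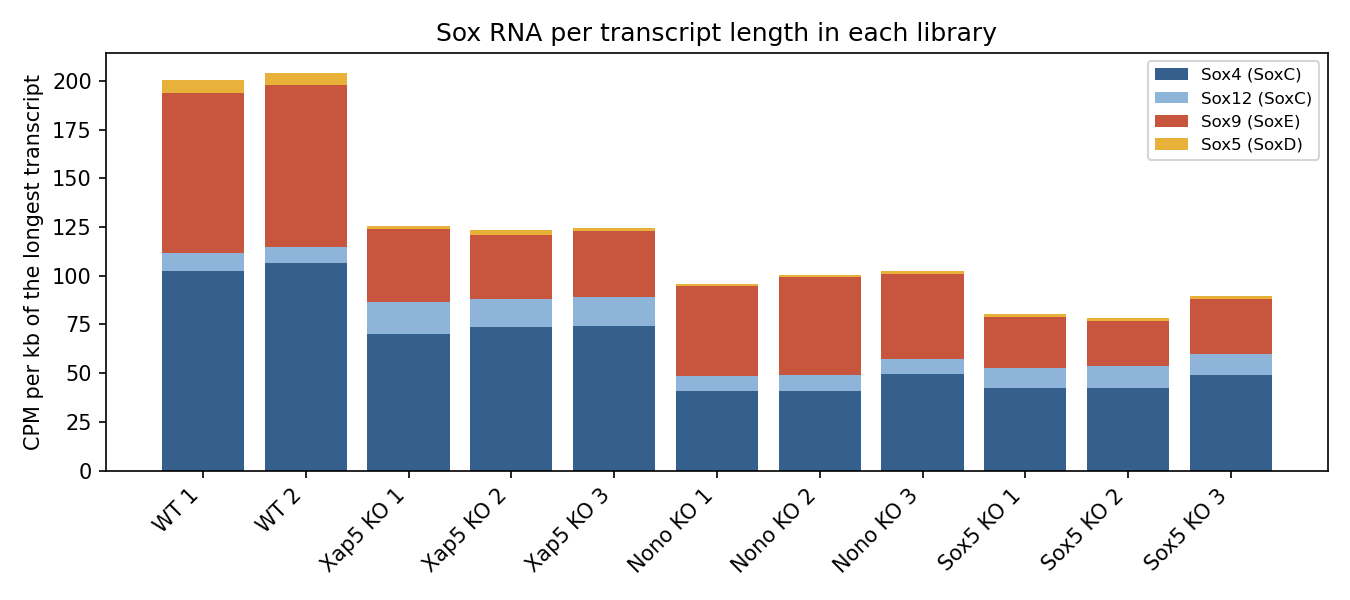
Summed level of Sox4, Sox12, Sox9 and Sox5 in each library, in CPM per kilobase of the longest transcript (vertical axis, starting at 0), stacked by gene. The WT columns reach about 202.3 on average against 124.6, 99.57 and 82.98 for all 8 genes in the Xap5, Nono and Sox5 knockouts, and Sox5 is a thin layer throughout.

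Of the 12 other Sox genes looked up, Sox10 alone passed the filter. Sox10, the third SoxE gene and a factor of melanocytes and glia, was counted 8 and 32 times in WT, 19, 28 and 48 times in Xap5 KO and 0 times in all 6 libraries of Nono KO and Sox5 KO. Relative to WT it was lower at least 5.58-fold in Nono KO and lower at least 4.55-fold in Sox5 KO, with edgeR adjusted p of 0.00183 and 0.00207. In Xap5 KO its value was 0.79 (SE 0.992, edgeR adjusted p 0.555), and Xap5 KO was at least 9.68-fold above Nono KO and at least 7.89-fold above Sox5 KO. Sox10 passed the filter through the WT and Xap5 KO libraries, and fits of only the 2 groups compared did not keep it for Nono KO or Sox5 KO against WT. Most WT counts were those of WT replicate 2; leaving it out lowered the bounds to 2.4-fold for Nono KO and 1.95-fold for Sox5 KO, with edgeR adjusted p of 0.0297 and 0.0299. The 7 melanocyte or Schwann cell markers looked up, Sox10 among them, summed to 94 to 94.4 CPM in WT, 66.8 to 84.2 in Xap5 KO, 42.8 to 49.5 in Nono KO and 41.9 to 48.6 in Sox5 KO. Of these, 2 were above 1 CPM in each group, and Dct and Tyr, which define melanocytes, were at 0 in every library. Their part in the Sox10 values was not tested. Sox15 had at most 6 counts in a library, Sox18 at most 9 and Sox21 at most 13, Sox7 and Sox30 had at most 3, and Sry, Sox1, Sox2, Sox3, Sox14 and Sox17 were at 0 throughout.

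The genes whose levels ran most like those of Sox5, Sox9 and Sox4 were found by Pearson's r of log2 CPM over the 11 libraries, among 11544 genes with a mean of at least 1 CPM. The libraries share 4 genotypes, so r mainly reads the 4 group means, and it is given as a description. For Sox5 they were Sparcl1 (r = 0.985), Klhl21 (0.972), Adgrg1 (0.972), Sema4b (0.971) and Junb (0.97), and 89 genes (0.771%) reached 0.9. Sparcl1 stood at mean levels of 781, 159, 105 and 163 CPM in the WT, Xap5, Nono and Sox5 groups, lowest in Nono KO as Sox5 was. For Sox9 they were Jmjd1c (0.989), Gas2l3 (0.985), Nav3 (0.982), Ptpn3 (0.981) and Ugdh (0.978), and 210 genes (1.82%) reached 0.9. The first 3 of these lie on chromosome 10, whose median was -0.46, -0.14 and -0.32 in the Xap5, Nono and Sox5 knockouts, whereas Sox9 lies on chromosome 11. For Sox4 they were Zfp592 (0.993), Kdm3b (0.982), Mib1 (0.981), Rest (0.98) and Ago4 (0.977), and 174 genes (1.51%) reached 0.9. Rest, a repressor of neuronal genes, stood at mean levels of 155, 134, 93 and 94 CPM in the same order of groups.

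Genes known from cartilage as targets of Sox9, Sox5 and Sox6 were in part scarce in these fibroblasts: 12 of 22 passed the filter. Against WT, 2 rose and 7 fell in Xap5 KO (median -0.76), 2 rose and 3 fell in Nono KO (median -0.07), and 2 rose and 3 fell in Sox5 KO (median -0.47), by edgeR's adjusted p. These counts, and those of the lists that follow, stand beside 23.2% and 22.3% of all tested genes called higher and lower in Xap5 KO, 23.5% and 25.1% in Nono KO, and 30.6% and 30.3% in Sox5 KO. Col11a1, a chain of the thin collagen XI fibrils, was counted 91 and 64 times in WT, 597, 710 and 692 times in Xap5 KO, 2554, 2505 and 2443 times in Nono KO and 0 times in Sox5 KO. It rose by 3.19 (SE 0.161) in Xap5 KO and by 5.11 in Nono KO and was lower at least 18.2-fold in Sox5 KO. Matn4, a cartilage matrix adaptor protein, was counted 187 and 220 times in WT, 2, 27 and 4 times in Xap5 KO and 0 to 4 times in the other knockouts, a change of -4.12 in Xap5 KO and -6.10 in Nono KO, and in Sox5 KO it was lower at least 47.4-fold. Without Xap5 KO replicate 2, which holds the 27 counts, the Xap5 KO value was -5.91.

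Matn1, a related matrix protein, was lower at least 7.72-fold in Xap5 KO and lower at least 7.2-fold in Nono KO, with 17 and 34 counts in WT and 4 in each Sox5 KO library, where it was not called. In Sox5 KO Matn1 was called lower with limma-voom (-2.03) and in the fit of only the groups compared (-2.2). Col27a1, a collagen of cartilage, fell by 0.75 in Xap5 KO and 0.45 in Sox5 KO and was at -0.06, not called, in Nono KO. The Col27a1 call in Sox5 KO did not hold with an offset for the chromosome median (-0.20) or for length and GC content (0.19). Wwp2, a ubiquitin ligase whose gene is a Sox9 target, fell by 0.48 in Xap5 KO and was at -0.19 and 0.15, not called, in Nono KO and Sox5 KO. The Wwp2 call in Xap5 KO did not hold with an offset for the chromosome median (-0.13). Wwp2 was called higher in Sox5 KO with the length and GC offset (0.29), and lower in Nono KO with library totals (-0.35), without WT replicate 1 (-0.29) or without Nono KO replicate 2 (-0.24). Col11a2, another collagen XI chain, was not called in the reported fit. The length and GC offset called it higher in Xap5 KO (0.69) and Sox5 KO (0.83), and so did the fit without Xap5 KO replicate 2 in Xap5 KO (0.71). The chondrocyte markers Col2a1, Acan, Col9a1, Matn3, Hapln1 and Comp summed to 1.24 to 2 CPM in WT, 0.0772 to 0.386 in Xap5 KO, 0.442 to 1.05 in Nono KO and 10.5 to 12 in Sox5 KO. In Sox5 KO 1 of these 6 was above 1 CPM, 4 were at the floor, and Matn3 and Hapln1 were at 0. Col2a1 made up most of that sum: it reached 375 counts in a library, Comp 17, Acan, Matn3 and Hapln1 4 each and Col9a1 2. Col9a1 was at 0 in WT, Xap5 KO and Nono KO. The part of the chondrocyte markers in the counts called was not tested. A filter of 10 counts in every library, which drops scarce members, left 0 called higher and 4 lower in Xap5 KO. It left 0 and 1 in Nono KO, and 1 and 1 in Sox5 KO. In Sox5 KO 4 were called higher with the length and GC offset and 1 with the chromosome offset, and 5 lower with limma-voom. The count called higher in Xap5 KO was 1 without WT replicate 1 or WT replicate 2, that in Sox5 KO was 0 without WT replicate 1 and 1 without Sox5 KO replicate 3, and the count called lower in Nono KO was 5 without Nono KO replicate 2.

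Of 8 genes described as SoxC targets, 6 passed the filter. In Xap5 KO 1 rose and 1 fell (median 0), in Nono KO 1 rose and 3 fell (median -0.43), and in Sox5 KO none rose and all 6 fell (median -3.19, or -0.94 with genes at the floor set to their bound), where 30.3% of all tested genes were called lower. Marcksl1, a regulator of actin, rose by 0.24 in Xap5 KO and fell by 1.03 in Nono KO and 0.65 in Sox5 KO. Tead2, a transcription factor of the Hippo pathway, fell by 0.93 in Nono KO and 0.18 in Sox5 KO and was at -0.11, not called, in Xap5 KO. Without WT replicate 1 the Marcksl1 call in Xap5 KO did not hold (0.20), nor did the Tead2 call in Sox5 KO without WT replicate 1, WT replicate 2 or Sox5 KO replicate 3 (-0.20 to -0.15), while Tead2 was called in Xap5 KO without replicate 1 of that group (-0.19). Ezh2, the methyltransferase of Polycomb, fell by 0.56 and 0.34 in Nono KO and Sox5 KO and was at 0.10, not called, in Xap5 KO.

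Map2, a microtubule protein of neurons, rose by 1.13 in Nono KO, fell by 5.73 in Sox5 KO and was at -0.40, not called, in Xap5 KO. Its counts were 435 and 548 in WT, 1010, 1035 and 945 in Nono KO and 2, 9 and 9 in Sox5 KO. Tubb3 and Elavl3, with at most 40 and 21 counts in a library, were at 0 in all Sox5 KO libraries and were called lower there. Tubb3 was also called lower in Xap5 KO, but not without WT replicate 2 or Xap5 KO replicate 1 or 3. Without WT replicate 2 neither Tubb3 (adjusted p 0.087 by edgeR's test) nor Elavl3, at 0 and 21 counts in the WT libraries, was called in Sox5 KO. Map2 was called lower in Xap5 KO with DESeq2 (-0.41), limma-voom (-0.40) or library totals (-0.45), and without Xap5 KO replicate 1 (-0.49) or Sox5 KO replicate 1. Map2, Tubb3, Elavl3 and Dcx are neuron markers as well, and summed to 10.9 to 13.5 CPM in WT, 8.37 to 9.98 in Xap5 KO, 26.1 to 26.6 in Nono KO and 0.0618 to 0.305 in Sox5 KO, with Dcx at 0 in all knockouts. Their part in the list's counts was not tested. With DESeq2, limma-voom or library totals 2 genes of the list were called lower in Xap5 KO. With the chromosome offset 0 were called lower and 2 higher there, and 0 were called lower in a fit of only the groups compared. Without WT replicate 2 the count called lower was 3 in Sox5 KO and 0 in Xap5 KO. The Xap5 KO count of genes called lower was also 0 without Xap5 KO replicate 3 and 2 without Xap5 KO replicate 1 or Sox5 KO replicate 1, and its count called higher was 0 without WT replicate 1.

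All 12 genes for partners of SOX proteins passed the filter. In Xap5 KO 2 rose and 3 fell (median -0.08), in Nono KO 3 rose and 4 fell (median -0.15), and in Sox5 KO 3 rose and 6 fell (median -0.39). Over all tested genes 45.5%, 48.6% and 60.9% were called in either direction. With library totals 1 of the 12 was called higher and 5 lower in Xap5 KO, and 0 were called higher in Sox5 KO. The length and GC offset called 4 higher in Xap5 KO and 3 lower in Sox5 KO. Arid5b, a DNA-binding partner of Sox9 in cartilage, was lower in the Xap5, Nono and Sox5 knockouts, at -0.39, -0.53 and -0.92. With an offset for the median of chromosome 10, which carries it, its Xap5 KO value was 0.07 and not called. Trps1, a repressor of the GATA family in growth-plate cells, was lower in the same order, at -0.72, -0.65 and -1.63. Ppargc1a, a coactivator of mitochondrial genes that binds Sox9, was counted 12 and 26 times in WT, 1189, 1316 and 1553 times in Xap5 KO, 173, 186 and 181 times in Nono KO and 2, 3 and 17 times in Sox5 KO, and it rose by 6.24 and 3.35 in the first 2 knockouts. In Sox5 KO it was at -0.92, not called, and without Sox5 KO replicate 3 it was called lower at -2.43.

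Kpnb1, importin beta, was higher in all 3, at 0.15, 0.37 and 0.21. With library totals it was not called in Xap5 KO or Sox5 KO (0.10 in each), nor with the chromosome offset (0.14 and 0.06). Ctbp1, a corepressor that binds SoxD proteins, fell by 0.44 in Nono KO and 0.24 in Sox5 KO and was at -0.12, not called, in Xap5 KO. Ep300, an acetyltransferase and coactivator of Sox9, fell by 0.21 in Nono KO and 0.65 in Sox5 KO and was at -0.10, not called, in Xap5 KO. The Ctbp1 call in Sox5 KO did not hold with the chromosome offset (-0.05). In Xap5 KO Ctbp1 was called lower with that offset or with library totals (-0.17 in each). The Ep300 call in Nono KO did not hold with the length and GC offset (-0.03), which also took its Sox5 KO value to 0.05, not called, nor did it hold without WT replicate 1 or 2 or Nono KO replicate 2. Kpnb1, whose edgeR adjusted p in Xap5 KO was 0.0473, was not called there in 8 of 11 fits that left out 1 library. The count called higher was 1 in Xap5 KO without WT replicate 1 or 2, Xap5 KO replicate 2, Nono KO replicate 2 or Sox5 KO replicate 2 or 3, and 1 in Sox5 KO without WT replicate 1 or 2 or Sox5 KO replicate 2 or 3.

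Of 22 genes known to act upstream of Sox9, 18 passed the filter. In Xap5 KO 3 rose and 8 fell (median -0.09), in Nono KO 6 rose and 8 fell (median 0.03), and in Sox5 KO 1 rose and 14 fell (median -0.53), where 30.6% of all tested genes were called higher and 30.3% lower. Notch1 and Notch2, receptors of the Notch pathway, differed: Notch1 was lower in the Xap5, Nono and Sox5 knockouts, at -1.73, -2.06 and -0.41, while Notch2 was at -0.01, not called, in Xap5 KO, rose by 0.42 in Nono KO and fell by 1.68 in Sox5 KO. The Notch1 call in Sox5 KO did not hold with DESeq2 (adjusted p 0.053), with the length and GC offset (0.33), without either WT replicate or without any 1 of the Sox5 KO replicates. Hes1, a repressor and target of Notch, was counted 187 and 217 times in WT, 539, 504 and 600 times in Xap5 KO, 558, 672 and 609 times in Nono KO and 34, 45 and 42 times in Sox5 KO, changes of 1.53, 1.71 and -1.88.

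Hif1a, the oxygen-sensing activator of Sox9, rose by 0.78 in Nono KO, fell by 0.17 in Sox5 KO and was at 0.02, not called, in Xap5 KO. With an offset for the median of chromosome 12, which was -0.75 in Sox5 KO, its value there was 0.58, a call in the other direction. The chromosome offset also called Hif1a higher in Xap5 KO (0.17). Fgfr1, a growth factor receptor, fell by 0.50 in Xap5 KO and 0.24 in Nono KO and was at 0.07, not called, in Sox5 KO. The Fgfr1 call in Nono KO did not hold with the chromosome offset (-0.12) or the length and GC offset (-0.11). In Sox5 KO the length and GC offset called Fgfr1 higher (0.31) and the chromosome offset called it lower (-0.16). Ctnnb1, β-catenin, fell by 0.23 and 0.21 in Nono KO and Sox5 KO and was at 0.03, not called, in Xap5 KO. The Ctnnb1 call in Nono KO did not hold without WT replicate 2. The Hif1a call in Sox5 KO did not hold without either WT replicate or without Sox5 KO replicate 1 or 2.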

How the data were processed

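RNA-seq of 11 NIH/3T3 libraries was analysed from a single table of gene counts. The deposited values are whole numbers, taken as estimated counts that the authors rounded, since 2 is found 3302 times in the table and 1 is found 857 times. Even values are in excess (4 is found 2121 times and 3 is found 1767 times), which counting both mates of a pair would also give; the floor of 3 counts would then stand for fewer fragments. The tools HISAT2 2.1.0, StringTie 1.3.3b and DESeq2 1.12.4 and the build GRCm39 (mm39) are named, with no order, in the submitters' processing notes. The annotation, the use of strand and the treatment of reads that fit several SOX genes are not given in the sources used here.

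The 21684 genes, 5060 of them at 0 throughout, were filtered with edgeR 4.0.16 in R 4.3.3 (minimum count 10, minimum total 15), which left 13332. They were fitted in 1 quasi-likelihood model of all 11 libraries with TMM factors, 1 mean per genotype and the robust option, and tested for the 6 pairs of genotypes. The Benjamini-Hochberg adjustment ran over all tested genes. The common biological coefficient of variation was 10.6%, and totals ran from 30205878 to 43498383 counts, so the spread between replicates set the precision for all but the scarce genes. The steps were tested on simulated data. No 2 libraries of a group agreed within sampling noise (chi-square per degree of freedom 9.22 to 32.2).

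Of the 21684 IDs, 21540 matched GENCODE M21 on GRCm38, used for chromosome, gene order, length, GC content and overlaps. That build is not the authors', and no gene coordinates are printed. The only coordinates given are those of the promoter windows, from RefSeq on GRCm38.p6. Fold bounds were computed against 3 counts in the library where these weigh most.

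The members and lists were chosen with earlier results of these data known. Of each list the 4 tested genes with the highest mean CPM and the 3 called genes with the largest change were named, besides the 5 genes most like Sox5, Sox9 and Sox4 and any Sox gene above 3 counts. Alternatives were DESeq2 1.42.0, limma-voom (limma 3.58.1), other scalings and filters, fits of fewer groups, no robust option, a replicate block, offsets for chromosome or for length and GC content, and leaving out each library.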

Additional observations from a re-analysis of the deposited data

How the results depend on the processing

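The changes of Sox4, Sox5 and Sox9 against WT and of Sox12 in Xap5 KO kept their direction and their call in all 22 alternatives: Sox4 -0.81 to -0.50, -1.42 to -1.17 and -1.34 to -1.04, Sox5 -1.88 to -1.55, -2.79 to -2.43 and -1.94 to -1.34, and Sox9 -1.31 to -1.22, -0.98 to -0.77 and -1.83 to -1.60 in the Xap5, Nono and Sox5 knockouts, and Sox12 0.67 to 0.88. The Sox6 values rest on a few counts, and WT, Nono KO and Sox5 KO were all at the floor, so between these its direction is not measured. In Xap5 KO its value was 4.21 with no filter (not called), and 3.27 to 7.26 leaving out 1 library. In Nono KO it ran from -3.03 to 2.6 leaving out 1 library. In Sox5 KO it was 0.09 with limma-voom, 0.38 with the length and GC offset and -3.06 to 2.88 leaving out 1 library. A filter of 10 counts in every library leaves no Sox6 value. Sox12 was called lower in Nono KO with library totals (-0.35) and stood at 0 with the length and GC offset, and in Sox5 KO it was not called with library totals (0.16) or the chromosome offset (0.14) and ran from 0.20 to 0.35 leaving out 1 library. With median transcript lengths the levels per kilobase were 21.7, 6.22, 3.53 and 6.1 for Sox5 in the WT, Xap5, Nono and Sox5 groups, and 8.05 and 11.1 for Sox12 in Nono KO and Sox5 KO. The cause was not tested, beyond what each setting changes by construction.

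Library totals moved the median of all genes by over 0.1: it was -0.18 in Nono KO (2157 called higher, 4989 lower), -0.12 in Sox5 KO (3340 and 4798) and 0.12 in Xap5 KO against Nono KO (4721 and 2624), where TMM factors gave 3134 and 3342, 4079 and 4042, and 3613 and 3458. Counts of called genes stayed within 1.5 times of the reported ones under all alternatives run.

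Same-numbered libraries of different groups did not deviate together (correlations from -0.023 to 0.046 over 15 pairs), so the numbers do not pair them. With the replicate number as a block 5916, 6340 and 7911 genes were called in the Xap5, Nono and Sox5 knockouts in place of 6064, 6476 and 8121. The block took Sox6 in Sox5 KO to 0.02, Elavl3 in Nono KO to 0.34 and Hif1a in Xap5 KO to -0.02, none of them called. It also ended the calls of Tubb3 in Xap5 KO (edgeR adjusted p 0.0772) and of Tead2 (0.073) and Elavl3 (0.0517) in Sox5 KO, so that no SoxC target was called lower in Xap5 KO in place of 1.

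Other directions turned as follows. The chromosome offset gave -0.07 for Sox5 in Xap5 KO against Sox5 KO, 0.02 for Sox6 in Nono KO against Sox5 KO, 0.07 for Arid5b and -0.09 for Ctnnb1 in Xap5 KO, and -0.09 for Wwp2, 0.01 for Ezh2, -0.16 for Fgfr1 and 0.58 for Hif1a in Sox5 KO. The length and GC offset gave -0.38 for Sox5 in Xap5 KO against Sox5 KO, 0.03 for Ep300 and 0.13 for Notch2 in Xap5 KO, 0.16 for Col27a1 in Nono KO, and 0.19 for Col27a1, 0.05 for Ep300, 0.05 for Hif1a and 0.33 for Notch1 in Sox5 KO. Library totals gave -0.02 for Ctnnb1 and -0.03 for Hif1a in Xap5 KO and -0.04 for Fgfr1 in Sox5 KO, and limma-voom gave 1.27 for Elavl3 in Nono KO. Leaving out 1 library gave -0.05 to 0.12 for Sox5 in Xap5 KO against Sox5 KO, -0.13 to 0.04 for Sox4 and -2.88 to 2.62 for Sox6 in Nono KO against Sox5 KO, -0.31 to 6.84, -1.29 to 5.87 and -7.17 to 0 for Elavl3 in the Xap5, Nono and Sox5 knockouts, and -0.03 to 0.06 for Ctnnb1, -0.01 to 0.03 for Hif1a and -0.08 to 0.04 for Notch2 in Xap5 KO. Sox6 was at the floor in both Nono KO and Sox5 KO, so its values between them give no direction. Without WT replicate 2 the WT side of Elavl3 was at 0 counts, so its values from that fit are no measured folds.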
